A study of Arabidopsis thaliana with 24 samples.

Results

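The comparison described here is the difference between wild type and tbf1 mutant Arabidopsis thaliana plants in their response to elf18. It was computed for each probe set as the elf18 response in tbf1 minus the elf18 response in wild type, where a response is the level after elf18 minus the level after water. The rule took the 12 arrays of infiltrated leaves among the 24 arrays of the series, 3 in each of 4 groups, and 22746 probe sets were tested. All plants were soil-grown for 3 weeks at 22 °C with 16 h of light and 8 h of dark, and mature leaves were sampled. The 4 groups were wild type (Columbia-0) infiltrated with water, wild type infiltrated with 10 µM elf18, tbf1 infiltrated with water and tbf1 infiltrated with 10 µM elf18, each for 2 h. The other 12 arrays, used below for a comparison, came from the same genotypes sprayed for 6 h with either 1 mM salicylic acid (SA) or water, again 3 arrays a group. The labels name a single tbf1 mutant with neither its allele nor a complemented line, so the mutation and any other difference of that line from Columbia-0 cannot be told apart. They call the 3 arrays of a group biological replicates and give no number of plants behind an array, so the p-values rest on the spread among these arrays, which may be technical.

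The peptide elf18 is the first stretch of bacterial elongation factor Tu, an abundant bacterial protein that Arabidopsis leaf cells perceive through the receptor kinase EFR. Perception starts pattern-triggered immunity, in which signalling through kinases and calcium leads within hours to a broad change of transcript levels, with defence genes higher and many growth and photosynthesis genes lower. TBF1, a transcription factor related to heat shock factors, is known as a regulator of this switch from growth to defence, and genes of the endoplasmic reticulum (ER) that fold and secrete defence proteins are among its known targets. The design asks how far the response to the peptide differs when TBF1 is mutated. No probe set in the annotation carried TBF1 under any of its RefSeq names, its locus or its Entrez identifier, so its transcript was not analysed here and did not check the mutant labels.

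The values were log2 expression values that the authors had made with RMA (robust multi-array average), and the median of each probe set over the 24 arrays was 0. A value of 0 is therefore that probe set's median level, values can be compared between arrays but not between genes, and brightness above background is lost. The leaf label could not be checked against marker levels on such values. Of the fixed marker list 2 genes had a usable probe set, the mesophyll gene RCA and the root gene PYK10. Across probe sets the correlation was 0.858 to 0.945 between replicates of a group and at most 0.679 between groups. Replicates of wild type after elf18 had an average SD of 0.205 and those of the other groups 0.114 to 0.128, so the spread shared by all groups in the fit is too small for the wild type elf18 arrays. Control probe sets moved with the groups. The index of 5' minus 3' signal for actin, GAPDH and ubiquitin averaged 0.31 in wild type after water, -0.98 in wild type after elf18, 0.84 in tbf1 after water and -0.34 in tbf1 after elf18, which gives an interaction of 0.11. The hybridisation spike-ins gave an elf18 response of 1.49 in wild type and 0.86 in tbf1, an interaction of -0.63, although they are added at the same amount to each sample by design. With the index as a covariate 4561 probe sets were called for the interaction, and the part of the spike-ins in the results below was not tested.

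The elf18 response differed between the genotypes for 4117 of the 22746 probe sets (18.1%) by limma at a Benjamini-Hochberg adjusted p below 0.05, the threshold for a call throughout, and 6801 (29.9%) had an unadjusted p below 0.05. The interaction, tbf1 response minus wild type response, was positive for 2542 of them (11.2% of those tested) and negative for 1575 (6.92%). A difference of at least 2-fold was reached by 750 of the called probe sets (3.30%), 480 of them positive (2.11%) and 270 negative (1.19%). The median interaction over all probe sets was -0.04. The response was wider in wild type, with an SD over probe sets of 0.76 against 0.58 in tbf1 and a median absolute response of 0.40 against 0.28. In wild type 7497 probe sets were called higher after elf18 (33.0%) and 6341 lower (27.9%), 60.8% in all. The same thresholds in tbf1 gave 4464 higher (19.6%) and 5658 lower (24.9%), 44.5% in all. The fit gave both responses a median SE of 0.12, although replicates spread most in wild type after elf18. The counts of the 2 genotypes are therefore not on an equal footing, and wild type is favoured. Bulk leaf RNA was measured, so fewer cells of a type and less RNA per cell cannot be told apart in any of these values.

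Most called probe sets moved in wild type and moved less in tbf1. Elf18 raised 974 of them in wild type with a smaller rise or none in tbf1 (called rises less), and lowered 1980 in wild type with a smaller fall or none in tbf1 (falls less). A further 428 rose in tbf1 with a smaller rise or no called rise in wild type (rises more), 432 fell in tbf1 with a smaller fall or no called fall in wild type (falls more), and 271 were called in opposite directions in the genotypes. The remaining 32 were called in neither response. Among the 974 that rose less the median response was 0.96 in wild type and 0.21 in tbf1, and 433 were still called higher in tbf1. Among the 1980 that fell less the medians were -1.28 and -0.49, and 1285 were still called lower in tbf1. Of the 428 that rose more, 258 were not called in wild type, and of the 432 that fell more, 319 were not called there. These classes were cut from the same arrays as the interaction, so a called wild type response favours a smaller change in tbf1 and a called tbf1 response favours the reverse, and the counts are a description. The classes moved with the processing, to 414 that rose less and 870 that fell less among 2245 calls after quantile normalization. With the 5' minus 3' index as a covariate 300 rose less, 375 fell less and 3870 of 4561 calls were in neither response.

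**Figure D1:**
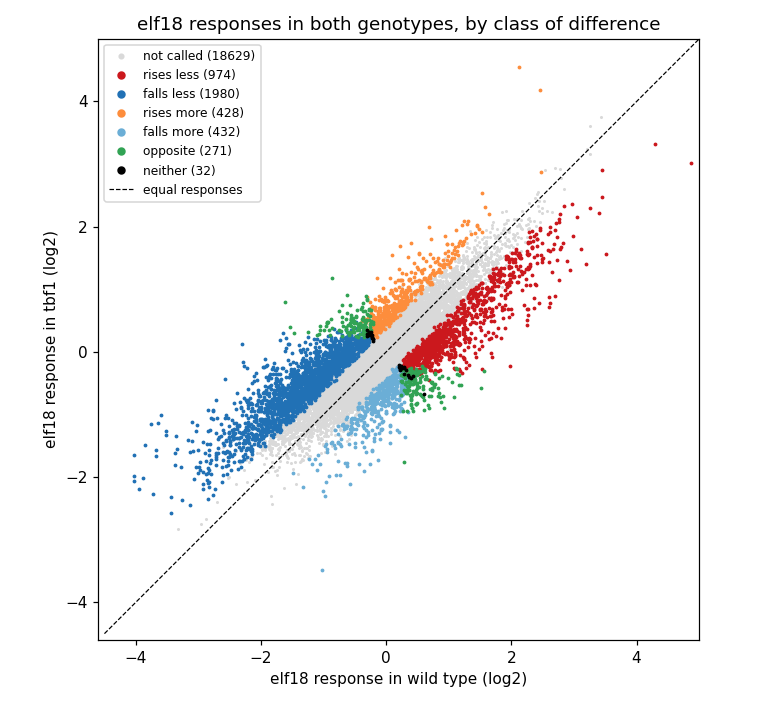
The elf18 response in tbf1 (log2, vertical axis) is plotted against the elf18 response in wild type (log2, horizontal axis) for the 22746 probe sets, coloured by class with the number of probe sets in brackets, and the dashed line marks equal responses. The 974 probe sets that rose less lie below the dashed line on the right, the 1980 that fell less lie above it on the left, and the 271 of opposite response lie at upper left and lower right.

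The genotype difference after each treatment is given for the classes. Of the 974 probe sets that rose less, 814 also differed between tbf1 and wild type after elf18, where 39.6% of all probe sets were called. After water 319 of the 974 differed, where 23.0% of all probe sets were called. The difference was called after elf18 and not after water for 625 of them and after water and not after elf18 for 130. Those that fell less also had more calls after elf18, 1617 of 1980, than after water, 848. Of the 1980, 599 were lower and 249 higher in tbf1 after water. Of the 974 that rose less, 98 were lower and 221 higher there. After water 309 of the 432 probe sets that fell more differed between the genotypes, 294 of them higher in tbf1 (13.6% of all probe sets were), while 212 differed after elf18. Of the 428 that rose more 228 differed after water, 209 of them lower in tbf1, a call that 9.41% of all probe sets had. The interaction is the genotype difference after elf18 minus that after water, on the same arrays. Choosing probe sets by it favours called differences in these directions, so the counts are a description. Whether the classes differ on the water arrays by more than this choice brings was not tested.

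Among the genes that rose less, the named ones of largest interaction rose at least 2-fold in wild type and were lower in tbf1 on every elf18 array. AT5G10830 encodes a protein of the S-adenosylmethionine-dependent methyltransferase family. AT5G10830 stood at 0.38, 0.07 and 0.63 on the wild type water arrays and at 2.58, 2.11 and 2.30 on the wild type elf18 arrays. In tbf1 AT5G10830 stood at 1.51, 1.49 and 1.32 after water and at 1.27, 0.88 and 1.49 after elf18. The wild type elf18 arrays lay above all others, while the tbf1 groups overlapped and the tbf1 water arrays lay above the wild type water arrays. The response was 1.97 in wild type and -0.23 in tbf1, an interaction of -2.20 ± 0.24 (estimate ± SE from the fit to 12 arrays, 3 a group), which is 4.59-fold (limma, adjusted p = 4.42e-05). AT2G29500 encodes a small heat shock protein of the HSP20-like family, chaperones that bind unfolded proteins. The wild type values of AT2G29500 were -0.38, -0.49 and -0.14 after water and 2.05, 2.48 and 2.56 after elf18. The tbf1 values of AT2G29500 were 0.04, 0.01 and -0.01 after water and 0.88, 0.60 and 1.23 after elf18. Both genotypes rose without overlap, and the 3 tbf1 elf18 arrays lay below the 3 wild type ones. Its rise of 2.70 in wild type was 0.89 in tbf1, an interaction of -1.81 ± 0.23 (adjusted p = 0.00012). AT3G25130, whose role is not described here, behaved in the same way. After water AT3G25130 read 0.00, -0.06 and 0.00 in wild type and 0.33, 0.51 and 0.44 in tbf1. After elf18 AT3G25130 read 2.55, 2.61 and 2.58 in wild type and 0.97, 1.40 and 1.06 in tbf1. It had a rise of 2.60 in wild type and 0.72 in tbf1, an interaction of -1.88 ± 0.15 (adjusted p = 7.34e-06). AT4G15120, a VQ motif protein of the family that partners with WRKY transcription factors, rose by 1.83 in wild type, with 0.23 in tbf1 (interaction -1.60 ± 0.19, adjusted p = 7.24e-05). AT2G31410 and AT1G36640 completed the set named by size, with interactions of -1.77 ± 0.16 and -1.59 ± 0.26.

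A pair of genes in this set belong to families linked to ribosomes. AT2G18220 encodes a protein of the Noc2p family, which in yeast helps to assemble the large ribosomal subunit. For AT2G18220 the water arrays gave 0.27, 0.23 and 0.43 in wild type and 0.01, -0.23 and -0.21 in tbf1. The elf18 arrays for AT2G18220 gave 2.47, 2.73 and 2.46 in wild type and 0.45, 0.15 and 0.27 in tbf1. Wild type rose on all 3 elf18 arrays to well above the others, and tbf1 was below wild type after both treatments. The rise was 2.24 in wild type and 0.43 in tbf1, an interaction of -1.81 ± 0.16 or 3.5-fold (adjusted p = 1.29e-05). AT3G58660 encodes a ribosomal protein L1p/L10e family member. AT3G58660 stood at 0.09, -0.35 and 0.13 on the wild type water arrays and at 1.67, 1.43 and 1.36 on the wild type elf18 arrays. In tbf1 AT3G58660 stood at 0.49, 0.28 and 0.13 after water and at -0.20, 0.26 and 0.04 after elf18. The tbf1 groups overlapped, and the tbf1 elf18 arrays lay below the wild type elf18 arrays. Its response was 1.53 in wild type and -0.27 in tbf1, an interaction of -1.80 ± 0.22 (adjusted p = 9.42e-05).

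**Figure D2:**
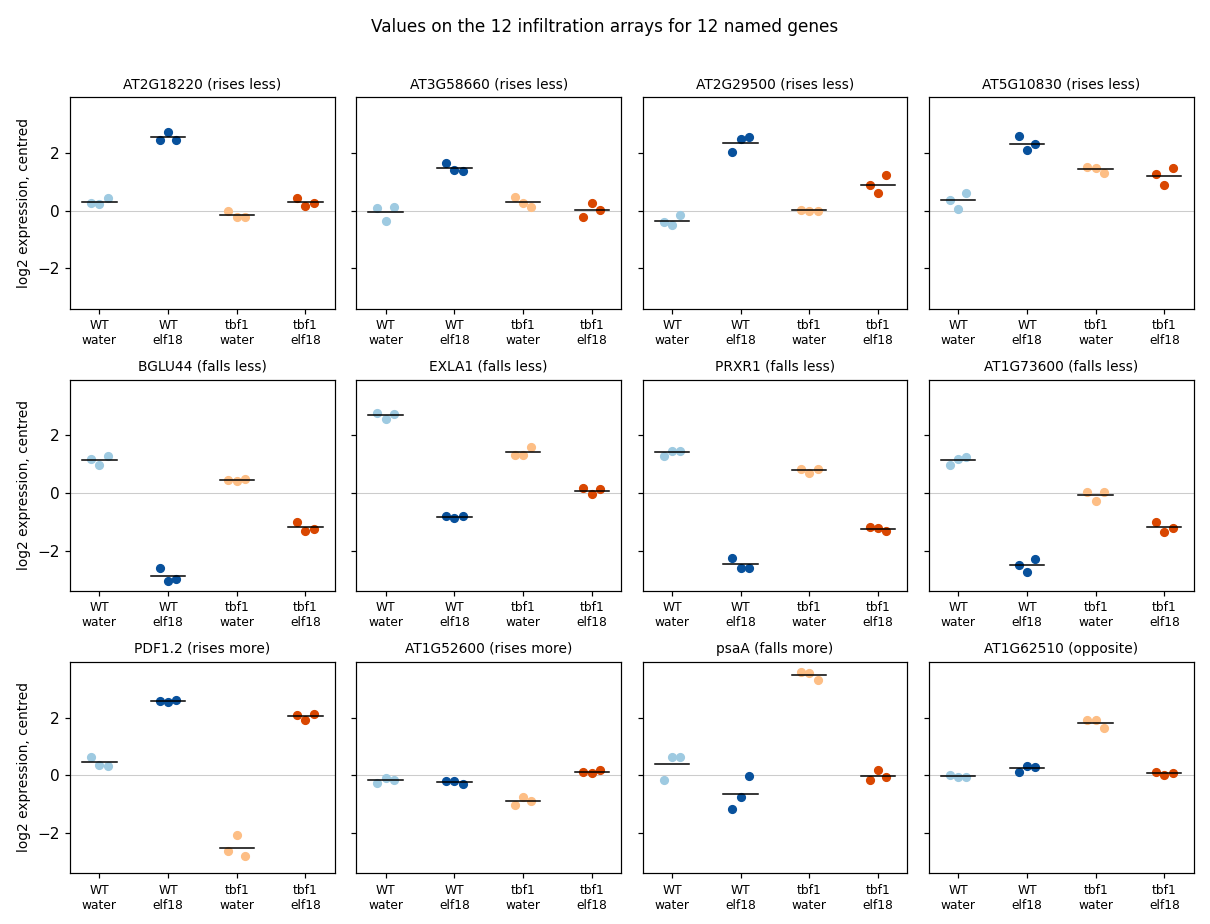
The centred log2 expression of 12 named genes is plotted for each of the 12 infiltration arrays, with 1 point per array, a horizontal line at the mean of each group of 3, and the class of the gene in the title. AT2G18220, AT3G58660, AT2G29500 and AT5G10830 are highest on the wild type elf18 arrays, BGLU44, EXLA1, PRXR1 and AT1G73600 are lowest there, PDF1.2 and AT1G52600 start lower in tbf1, and psaA and AT1G62510 start higher in tbf1.

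Because of these genes, a list of 33 probe sets for ribosome biogenesis and nucleolar factors was drawn up after the values of AT2G18220 and AT3G58660 had been seen, and it is given as a description. The interaction was called negative for 7 of the 33 (21.2%) and positive for 1 (3.03%), against 6.92% and 11.2% of all probe sets. AT2G18220 and AT3G58660 are themselves among the 7, so these calls were known before the list was drawn up. The median was -0.16 against -0.04 over all probe sets. All 7 negative ones rose less in tbf1. They included AT3G10530, the homologue of yeast UTP7 in small subunit processing, with responses of 1.23 and -0.09 and an interaction of -1.32 ± 0.17 (adjusted p = 0.000135). AT3G05060, a homologue of the yeast nucleolar protein NOP58 that binds small RNAs guiding rRNA methylation, had responses of 1.02 and -0.07 (interaction -1.09 ± 0.14, adjusted p = 0.000166). The largest members that were not called were AT1G69070 with -0.84 ± 0.32 (adjusted p = 0.0867) and AT5G14050 with -0.71 ± 0.26 (adjusted p = 0.0765). The control probe set for 25S rRNA had an interaction of -0.60, and its part in this was not tested.

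Among the ribosomal proteins themselves most calls were positive. Of 100 probe sets for cytosolic ribosomal proteins the interaction was called positive for 48 and negative for 1, against 11.2% and 6.92% of all probe sets. The median was 0.42, and 86 of the 100 had a positive sign. The median response was 0.12 in wild type and 0.47 in tbf1. In wild type 44 of them rose after elf18 and 37 fell, and in tbf1 60 rose and 17 fell. The genotypes were level after water, with a median difference of -0.01, and tbf1 was higher after elf18, with a median difference of 0.38. Of the 48 positive interactions, 26 rose more in tbf1, 17 fell less and 5 were of opposite direction. AT5G35530, ribosomal protein S3 of the small subunit, had the largest interaction of the list, from a fall in wild type. The wild type values of AT5G35530 were -0.10, -0.12 and -0.21 after water and -1.27, -0.94 and -1.06 after elf18. The tbf1 values of AT5G35530 were -0.24, -0.13 and -0.12 after water and -0.04, -0.09 and -0.05 after elf18. The wild type elf18 arrays were lowest and the other 3 groups lay close together. The response was -0.94 in wild type and 0.10 in tbf1, an interaction of 1.04 ± 0.14 (adjusted p = 0.000176). AT3G05560, a ribosomal protein L22 gene, gave -0.29 in wild type and 0.59 in tbf1 (interaction 0.88 ± 0.12, adjusted p = 0.000222), and AT3G13580, an L7 gene, gave -0.97 and -0.11 (interaction 0.86 ± 0.16, adjusted p = 0.00222). AT2G21580, a ribosomal protein S25 gene, rose by 1.00 in tbf1 beside 0.14 in wild type (interaction 0.86 ± 0.16, adjusted p = 0.00177). AT5G28060 and AT2G17360, the largest that were not called, had interactions of 0.49 and 0.50. Ribosomal protein genes come in near-identical copies that a probe set may not separate. When the 12 arrays were given 1 common distribution by quantile normalization, the positive calls fell from 48 to 10 and the median to 0.20.

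The called genes among those that charge transfer RNAs and help translation also had positive interactions. Of 17 probe sets for tRNA synthetases and translation factors, 6 had a positive interaction (35.3%, against 11.2% of all probe sets) and 0 a negative one. The median was 0.35, and the median responses were -0.59 in wild type and -0.21 in tbf1. Of the 6 called ones 5 fell less in tbf1 and 1 rose more. Those that fell less included AT1G72550 with -0.66 against 0.12 (interaction 0.78 ± 0.16, adjusted p = 0.00399), AT3G58140 with -1.46 against -0.69 (0.77 ± 0.19, adjusted p = 0.0122) and AT5G26830, a threonine tRNA synthetase, with -0.59 against 0.11 (0.70 ± 0.15, adjusted p = 0.0052). None of the 17 was called after quantile normalization, with a median of 0.18.

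**Figure D3:**
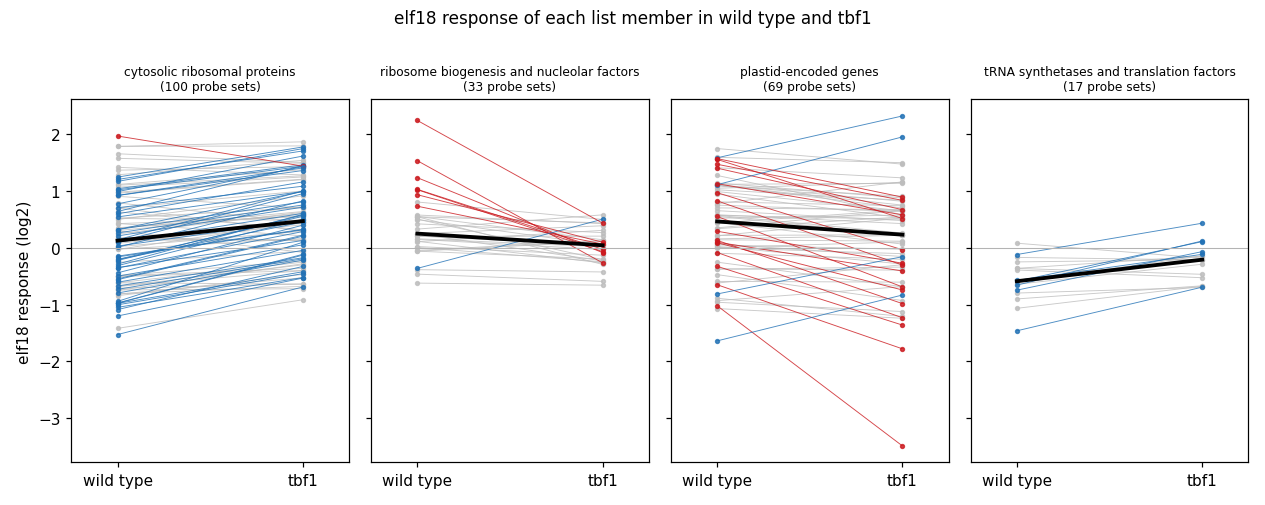
The elf18 response (log2) of each probe set of 4 gene lists is drawn as a line from wild type to tbf1, blue where the interaction was called positive, red where called negative and grey where not called, with the median of the list in black. The median rises from 0.12 to 0.47 in cytosolic ribosomal proteins and from -0.59 to -0.21 in tRNA synthetases and translation factors, and falls from 0.25 to 0.04 in ribosome biogenesis factors and from 0.46 to 0.23 in plastid-encoded genes.

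The genes named by size among those that fell less in tbf1 were lowered strongly by elf18 in wild type, and several have products in the cell wall or the apoplast. BGLU44 encodes a beta-glucosidase, an enzyme that releases glucose from sugar conjugates. After water BGLU44 read 1.17, 0.96 and 1.30 in wild type and 0.46, 0.41 and 0.49 in tbf1. After elf18 BGLU44 read -2.61, -3.06 and -2.97 in wild type and -1.01, -1.31 and -1.25 in tbf1. In both genotypes every elf18 array lay below every water array, and the tbf1 elf18 arrays lay above the wild type ones. The fall was -4.02 in wild type and -1.65 in tbf1, an interaction of 2.37 ± 0.18 or 5.18-fold (limma, adjusted p = 4.78e-06). EXLA1 encodes an expansin-like protein of the cell wall. For EXLA1 the water arrays gave 2.77, 2.58 and 2.75 in wild type and 1.34, 1.31 and 1.59 in tbf1. The elf18 arrays for EXLA1 gave -0.79, -0.88 and -0.79 in wild type and 0.16, -0.03 and 0.13 in tbf1. The tbf1 arrays lay below wild type after water and above it after elf18. Its responses were -3.52 and -1.33, an interaction of 2.19 ± 0.15 (adjusted p = 2.84e-06). AT1G73600 encodes a phosphoethanolamine methyltransferase, an enzyme on the way to phosphocholine. AT1G73600 stood at 0.99, 1.19 and 1.25 on the wild type water arrays and at -2.48, -2.73 and -2.29 on the wild type elf18 arrays. In tbf1 AT1G73600 stood at 0.05, -0.27 and 0.05 after water and at -1.02, -1.34 and -1.21 after elf18. Here too the genotypes did not overlap on either treatment and changed order between them. It had a response of -3.64 in wild type and -1.13 in tbf1 (interaction 2.51 ± 0.19, adjusted p = 4.78e-06).

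AT1G29660, a GDSL-type lipase gene, had the largest positive interaction of the named genes of the class, 2.60 ± 0.50 (adjusted p = 0.00242), from responses of -3.75 and -1.16, with a wider error than BGLU44. DRT100, a leucine-rich repeat protein, had -2.27 in wild type and -0.22 in tbf1 (interaction 2.05 ± 0.24, adjusted p = 7.69e-05), and its tbf1 groups overlapped. MSRB5, a methionine sulfoxide reductase that repairs oxidised methionine, had -1.65 and 0.30 (1.95 ± 0.18, adjusted p = 1.45e-05), also with overlapping tbf1 groups. XTH19, a xyloglucan endotransglucosylase/hydrolase that remodels wall polymers, had -2.85 and -0.93 (1.92 ± 0.23, adjusted p = 9.48e-05). AT5G48900, a pectate lyase gene, had -1.70 and 0.19 (1.89 ± 0.14, adjusted p = 4.78e-06). PRXR1, a class III peroxidase, fell steeply in wild type. The wild type values of PRXR1 were 1.28, 1.47 and 1.47 after water and -2.25, -2.60 and -2.58 after elf18. The tbf1 values of PRXR1 were 0.84, 0.69 and 0.83 after water and -1.17, -1.22 and -1.30 after elf18. The wild type elf18 arrays lay far below the rest, and tbf1 was higher than wild type after elf18. It had a response of -3.88 in wild type and -2.02 in tbf1 (interaction 1.86 ± 0.16, adjusted p = 8.43e-06), while the other 2 peroxidases on the list were not called.

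Not every wall gene followed them. Among 33 probe sets for expansins, XTH and pectin enzymes, 6 had a positive and 2 a negative interaction (18.2% and 6.06%), and the median was 0.06. Over all probe sets these shares were 11.2% and 6.92%. EXPA8, an expansin, had a response of -0.58 in wild type and 0.75 in tbf1 (interaction 1.34 ± 0.14, adjusted p = 2.85e-05). PMEPCRF, a pectin methylesterase, had an interaction of 1.15 ± 0.33 (adjusted p = 0.0239), and that call was lost when any of 5 arrays was left out. Among 7 tubulins, building blocks of microtubules, 3 had a positive interaction (42.9%) and none a negative one, with a median of 0.36. TUB5 had a response of -2.84 in wild type and -1.57 in tbf1 (interaction 1.27 ± 0.15, adjusted p = 9.48e-05), TUB6 gave -2.12 and -1.34 (0.78 ± 0.19, adjusted p = 0.0114) and TUA6 gave -1.81 and -1.22 (0.59 ± 0.14, adjusted p = 0.00934). TUB5 alone kept its call after quantile normalization.

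Nuclear genes of photosynthesis with a called difference fell less in tbf1. Of 13 probe sets for the Calvin cycle and chlorophyll synthesis 6 had a positive interaction (46.2%, against 11.2% of all probe sets) and none a negative one. Their median response was -1.20 in wild type and -0.95 in tbf1, and their median interaction 0.47. CHLM, which methylates magnesium protoporphyrin on the way to chlorophyll, had the largest interaction of the 13. After water CHLM read 0.23, 0.25 and 0.21 in wild type and 0.22, 0.37 and 0.40 in tbf1. After elf18 CHLM read -1.85, -1.79 and -2.09 in wild type and -0.88, -0.86 and -0.94 in tbf1. Elf18 arrays lay below water arrays in both genotypes, and tbf1 stayed above wild type after elf18. It had a response of -2.14 in wild type and -1.22 in tbf1 (interaction 0.92 ± 0.14, adjusted p = 0.000433). PORB, which reduces protochlorophyllide, had -2.21 and -1.41 (0.80 ± 0.17, adjusted p = 0.00563), RCA, the activase of Rubisco, had -1.20 and -0.62 (0.58 ± 0.13, adjusted p = 0.00619), and SBPASE, a phosphatase of the Calvin cycle, had -1.50 and -0.95 (0.54 ± 0.13, adjusted p = 0.0104). Of 11 nuclear photosystem and antenna probe sets 4 had a positive interaction (36.4%) and none a negative one, with a median of 0.29. They included the antenna genes LHCB4.2 with -1.60 against -0.90 (0.70 ± 0.12, adjusted p = 0.0013) and LHCB4.3 with -1.31 against -0.51 (0.79 ± 0.16, adjusted p = 0.00344), and the ATP synthase subunit gene ATPC1 with -1.49 against -0.85 (0.64 ± 0.14, adjusted p = 0.00465). After quantile normalization 1 of the 13 and none of the 11 were called, and both medians came to -0.01. That setting gives wild type and tbf1 arrays the same spread, and the arrays had an SD over probe sets of 0.664 to 0.676 in wild type after elf18 and 0.440 to 0.448 in tbf1 after elf18.

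**Figure D4:**
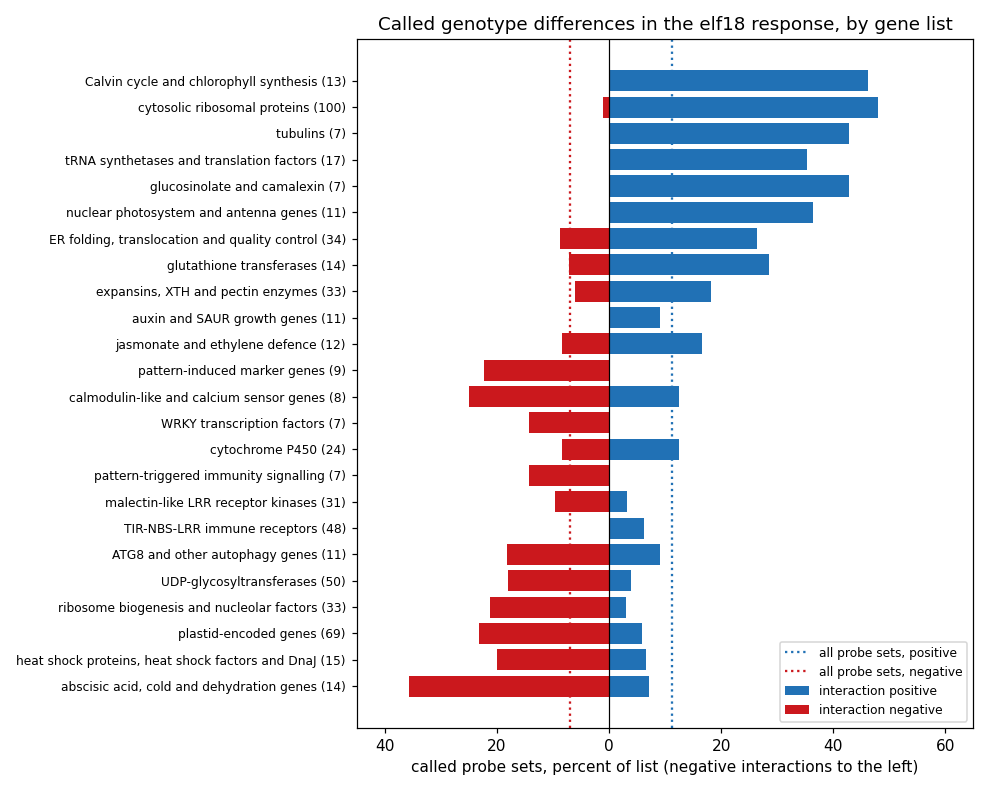
For each gene list with at least 7 probe sets (number in brackets) the bars give the percent of its probe sets with a called positive interaction (blue, to the right) and a called negative interaction (red, to the left), and dotted lines give the shares over all probe sets, 11.2% and 6.92%. Cytosolic ribosomal proteins, Calvin cycle genes, tubulins and glucosinolate genes stand right of the blue line, and plastid-encoded genes, cold and dehydration genes and ribosome biogenesis factors stand left of the red line.

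The genes named by size among those that rose more in tbf1 started lower there. PDF1.2 encodes a plant defensin, an antifungal peptide used as a marker of jasmonate and ethylene signalling. For PDF1.2 the water arrays gave 0.65, 0.37 and 0.34 in wild type and -2.64, -2.09 and -2.80 in tbf1. The elf18 arrays for PDF1.2 gave 2.58, 2.53 and 2.61 in wild type and 2.1, 1.92 and 2.11 in tbf1. All tbf1 water arrays lay far below the wild type water arrays, and the tbf1 elf18 arrays remained below the wild type elf18 arrays. The rise was 2.12 in wild type and 4.55 in tbf1, an interaction of 2.44 ± 0.22 or 5.41-fold (adjusted p = 1.29e-05). The level in tbf1 was -2.96 against wild type after water and -0.53 after elf18. PDF1.2b, a close copy whose signal a probe set may share, rose by 2.46 and 4.19 (interaction 1.73 ± 0.13, adjusted p = 4.78e-06). PDF1.4 had 3.26 and 3.61 and was not called (0.35 ± 0.14, adjusted p = 0.0989). GRX480, a glutaredoxin that binds TGA transcription factors, followed PDF1.2 in part. GRX480 stood at 0.54, 0.51 and 0.55 on the wild type water arrays and at 0.94, 0.92 and 0.86 on the wild type elf18 arrays. In tbf1 GRX480 stood at -1.36, -1.41 and -1.60 after water and at -0.35, -0.37 and -0.21 after elf18. The tbf1 arrays lay below the wild type arrays after both treatments. It rose by 1.14 in tbf1 beside 0.37 in wild type (interaction 0.77 ± 0.13, adjusted p = 0.00094), the only call among 5 genes of the SA pathway (20%, near the 18.1% of all probe sets).

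The other genes named by size that rose more were lower in tbf1 on every water array. Over the whole class 209 of 428 probe sets were called lower in tbf1 after water. AT5G48490, a lipid transfer protein gene, stood at -1.09 in tbf1 minus wild type after water and had responses of 0.40 in wild type and 1.74 in tbf1 (interaction 1.34 ± 0.16, adjusted p = 9.19e-05). The same water difference was -1.87 for AT1G19960, with an interaction of 1.44 ± 0.15 (adjusted p = 3.91e-05), and -1.66 for AT1G65490, with 1.31 ± 0.13 (adjusted p = 2.29e-05). AT5G01015, AT5G50335 and AT5G40540 had interactions of 1.17 ± 0.13, 1.09 ± 0.17 and 1.17 ± 0.21. AT1G52600 belongs to the ER, where it encodes a subunit of the signal peptidase that trims secreted proteins. The wild type values of AT1G52600 were -0.25, -0.09 and -0.18 after water and -0.20, -0.18 and -0.31 after elf18. The tbf1 values of AT1G52600 were -1.02, -0.75 and -0.89 after water and 0.11, 0.09 and 0.20 after elf18. The wild type groups overlapped, and tbf1 went from below wild type after water to above it after elf18. Its response was -0.06 in wild type and 1.02 in tbf1 (interaction 1.08 ± 0.13, adjusted p = 0.000123).

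Among genes of ER folding, translocation and quality control both directions were called. Of 34 probe sets 9 had a positive interaction (26.5%, against 11.2% of all probe sets) and 3 a negative one (8.82% against 6.92%). By class 5 rose more, 3 fell less, 2 rose less and 2 were of opposite direction. The median interaction was 0.14, and the median response was 0.18 in wild type and 0.40 in tbf1. In wild type 13 of them rose and 10 fell, and in tbf1 18 rose and 6 fell. When 1 array was left out the positive calls ranged from 5 to 9. ATERDJ3B, a co-chaperone of the ER needed to make EFR, moved in opposite directions. After water ATERDJ3B read 0.59, 0.46 and 0.51 in wild type and -0.35, -0.44 and -0.47 in tbf1. After elf18 ATERDJ3B read 0.09, -0.04 and -0.02 in wild type and 0.14, 0.07 and 0.02 in tbf1. The tbf1 water arrays were the lowest of the 4 groups, and tbf1 was level with wild type after elf18. It had a response of -0.51 in wild type and 0.50 in tbf1 (interaction 1.01 ± 0.12, adjusted p = 0.000109). CRT1b, a calreticulin that holds newly made glycoproteins for folding, likewise had a tbf1 minus wild type difference of -0.98 after water, and had responses of -0.88 and 0.19 (interaction 1.07 ± 0.17, adjusted p = 0.000608). DER2.2, a derlin of the pathway that exports misfolded proteins, had -0.83 and 0.37 (interaction 1.20 ± 0.21, adjusted p = 0.00116) and was higher in tbf1 after elf18, by 1.50. ATERDJ2B and AT5G61970 were not called, with interactions of 0.59 ± 0.24 and 0.33 ± 0.13.

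Genes that fell more in tbf1 were led by psaA, the plastid gene for a core subunit of photosystem I. For psaA the water arrays gave -0.14, 0.65 and 0.62 in wild type and 3.60, 3.55 and 3.30 in tbf1. The elf18 arrays for psaA gave -1.16, -0.74 and -0.04 in wild type and -0.15, 0.19 and -0.06 in tbf1. The tbf1 water arrays lay far above all others, and the other 3 groups lay closer together, with overlap between the wild type groups and between the genotypes after elf18. It had a response of -1.02 in wild type and -3.49 in tbf1, an interaction of -2.47 ± 0.35 or 5.54-fold (adjusted p = 0.00028). AT2G30600, a BTB/POZ domain protein gene, also started high in tbf1. AT2G30600 stood at 0.09, 0.63 and 0.63 on the wild type water arrays and at -0.50, -0.59 and -0.48 on the wild type elf18 arrays. In tbf1 AT2G30600 stood at 2.46, 2.41 and 2.30 after water and at 0.09, -0.03 and 0.17 after elf18. The tbf1 arrays lay above wild type after both treatments. Its fall was -0.98 in wild type and -2.31 in tbf1 (interaction -1.33 ± 0.18, adjusted p = 0.000237). AT1G10090 was higher in tbf1 by 1.55 after water, with an interaction of -1.67 ± 0.22 (adjusted p = 0.000166). AT2G31010, a protein kinase gene, was higher by 1.29 (-1.52 ± 0.25, adjusted p = 0.000846). ATATH8 was higher by 1.30 (-1.53 ± 0.19, adjusted p = 0.000103). AT2G07360, a subunit of the TPLATE complex of endocytosis, was higher by 1.48 (-1.27 ± 0.20, adjusted p = 0.000623). In contrast, AT1G70620 and iqd32, a calmodulin-binding IQD protein, overlapped after water and were lower in tbf1 after elf18, with tbf1 minus wild type differences of -1.58 and -1.27 and interactions of -1.49 ± 0.19 and -1.31 ± 0.24.

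Plastid-encoded genes as a group had more negative than positive calls. Of 69 probe sets 16 were negative and 4 positive (23.2% and 5.80%, against 6.92% and 11.2% of all probe sets). The median was -0.18, and the median responses were 0.46 in wild type and 0.23 in tbf1. Of the 16 negative ones 8 rose less, 7 fell more and 1 was of opposite direction. That last was rpl36, a plastid ribosomal protein gene, with 0.55 in wild type and -0.69 in tbf1 (interaction -1.24 ± 0.13, adjusted p = 3.92e-05). The plastid ribosomal protein genes rpl14 and rpl33 had interactions of -1.15 ± 0.22 (adjusted p = 0.00217) and -1.13 ± 0.18 (adjusted p = 0.000769). The photosynthesis genes did not move as a block, since psaB, petN, psaC and the ATP synthase gene atpB were the 4 positive ones, with interactions of 0.66, 0.84, 0.74 and 0.81, while psbD, psbT and psbB gave -1.13, -1.04 and -1.01. These 7 genes were picked out after their values were seen. Plastid transcripts mostly lack a poly(A) tail, and the 5' minus 3' index given above also differed between the groups. With that index as a covariate 17 were negative and 4 positive, and with quantile normalization 15 and 4. The index itself had an interaction of 0.11, so as a covariate it can change these counts little. The part of RNA quality in these calls was not tested.

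In 271 cases both responses were called and had opposite signs, 153 with a rise in wild type and a fall in tbf1 and 118 the reverse. AT5G17910, whose role is not described here, had the most negative interaction among the named ones. The wild type values of AT5G17910 were 0.44, 0.50 and 0.84 after water and 2.21, 2.1 and 2.03 after elf18. The tbf1 values of AT5G17910 were 0.79, 0.46 and 0.39 after water and 0.27, -0.12 and -0.26 after elf18. The water groups overlapped, wild type rose above them and tbf1 fell below them. The response was 1.52 in wild type and -0.58 in tbf1, an interaction of -2.10 ± 0.21 or 4.3-fold (adjusted p = 2.84e-05). A pair of kinase genes did the same. AT5G65240, a leucine-rich repeat protein kinase, had responses of 0.92 and -0.90 (interaction -1.82 ± 0.29, adjusted p = 0.000619), and AT1G18390, a receptor-like kinase of the LRK10-like family, had 1.19 and -0.53 (-1.71 ± 0.21, adjusted p = 0.000103). AT4G33980, the cold-regulated gene COR28 of the circadian system, had 0.88 and -0.80 (-1.68 ± 0.18, adjusted p = 3.92e-05) and was already 1.40 higher in tbf1 after water. AT1G62510, of the lipid transfer and seed storage albumin family, was higher in tbf1 after water by 1.87 and had 0.28 and -1.76 (-2.04 ± 0.14, adjusted p = 3.18e-06).

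The reverse order, a fall in wild type and a rise in tbf1, was largest among the named genes in AT4G12980, an auxin-responsive membrane protein with a DOMON domain. After water AT4G12980 read -0.07, -0.04 and 0.02 in wild type and -0.97, -1.22 and -1.47 in tbf1. After elf18 AT4G12980 read -0.71, -0.76 and -1.23 in wild type and 0.20, -0.05 and -0.27 in tbf1. The tbf1 arrays lay below wild type after water and above it after elf18. It gave -0.87 in wild type and 1.18 in tbf1 (interaction 2.04 ± 0.22, adjusted p = 4.74e-05). AT3G62550, a universal stress protein family gene, gave -1.25 and 0.32 (1.56 ± 0.13, adjusted p = 8.45e-06), and AT5G12940, a leucine-rich repeat protein gene, gave -1.06 and 0.41 (1.47 ± 0.16, adjusted p = 3.91e-05). AT2G41950 and AT2G20670 had interactions of 1.42 ± 0.18 and 1.41 ± 0.15.

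Genes of elf18 perception and early signalling were few on the lists. Of 7 listed probe sets for pattern-triggered immunity signalling 1 was called (14.3%, near the 18.1% of all probe sets). It was PUB22, a U-box ubiquitin ligase that dampens pattern signalling, which had a rise of 0.76 in wild type and 0.30 in tbf1 (interaction -0.46 ± 0.15, adjusted p = 0.0455). That call was lost with array medians set equal, with all 24 arrays in the fit and with 10 of the 12 arrays left out in turn. WRKY22 and WRKY53, transcription factors of this pathway, gave -0.15 ± 0.15 (adjusted p = 0.541) and 0.20 ± 0.13 (adjusted p = 0.339). Of 9 genes widely used as markers of induction by bacterial peptides 2 rose less in tbf1 and none had a positive call. Those 2 are 22.2% of the list, and 6.92% of all probe sets were called negative. AT2G17740, a C1 domain protein gene, was the larger. For AT2G17740 the water arrays gave 1.92, 1.80 and 1.67 in wild type and 2.18, 2.17 and 2.29 in tbf1. The elf18 arrays for AT2G17740 gave 4.22, 4.12 and 4.51 in wild type and 3.47, 3.74 and 3.86 in tbf1. Both genotypes rose without overlap, to a lower level in tbf1. The rise was 2.49 in wild type and 1.48 in tbf1 (interaction -1.01 ± 0.18, adjusted p = 0.00125), and AT3G46280 gave 0.54 and -0.05 (-0.59 ± 0.13, adjusted p = 0.00648). AT1G51890, a receptor-like kinase gene, rose by 1.53 and 1.81 and was not called (0.28 ± 0.18, adjusted p = 0.325). After quantile normalization neither of the 2 marker genes was called, and 2 others were called positive.

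Of 7 WRKY transcription factors on the list 1 was called (14.3%, again near the 18.1% of all probe sets). WRKY6, known from senescence and defence, was called higher in wild type and not in tbf1. WRKY6 stood at 0.50, 0.35 and 0.35 on the wild type water arrays and at 1.38, 1.51 and 1.50 on the wild type elf18 arrays. In tbf1 WRKY6 stood at 0.86, 0.77 and 0.48 after water and at 0.84, 0.66 and 0.71 after elf18. The wild type elf18 arrays lay above all others. Its response was 1.06 in wild type and 0.03 in tbf1 (interaction -1.03 ± 0.15, adjusted p = 0.000393). Malectin-like leucine-rich repeat receptor kinases had 3 negative calls and 1 positive call among 31, or 9.68% and 3.23% against 6.92% and 11.2% of all probe sets. AT1G51790 had a response of 0.79 in wild type and 0.03 in tbf1 (-0.75 ± 0.13, adjusted p = 0.001), and the positive one was AT5G59670 with -1.78 and -0.49 (1.29 ± 0.18, adjusted p = 0.000312). After quantile normalization 3 of the 31 were called positive and none negative. Of 48 intracellular immune receptors of the TIR-NBS-LRR class 3 fell less in tbf1 and none was called negative (6.25% positive against 11.2% of all probe sets). AT5G58120 was the largest of them. The wild type values of AT5G58120 were 1.70, 1.66 and 1.76 after water and 0.15, 0.00 and -0.57 after elf18. The tbf1 values of AT5G58120 were 0.57, 0.44 and 0.34 after water and -0.09, -0.32 and 0.01 after elf18. The tbf1 water arrays lay below the wild type water arrays, and the genotypes overlapped after elf18. It had -1.85 and -0.59 (1.26 ± 0.22, adjusted p = 0.00122), AT5G22690 had -1.29 and -0.20 (1.09 ± 0.18, adjusted p = 0.000778), and AT3G44630 had -1.51 and -0.49 (1.02 ± 0.22, adjusted p = 0.00488).

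Heat shock proteins are of interest because TBF1 resembles heat shock factors. Of 15 probe sets for heat shock proteins, heat shock factors and DnaJ proteins 3 rose less in tbf1 (20%) and 1 had a positive call (6.67%). Over all probe sets 6.92% were called negative and 11.2% positive. The list had a median interaction of -0.30 and median responses of 0.68 and 0.37. It does not hold the HSP20-like protein gene AT4G21870, called at -1.14 and named below, so the counts do not cover the whole family. Beside AT2G29500 the listed genes that rose less were AT5G48570, a heat-induced peptidyl-prolyl isomerase, with 2.30 and 1.37 (-0.93 ± 0.17, adjusted p = 0.0019), and AT5G51440, a small heat shock protein, with 2.49 and 1.74 (-0.74 ± 0.19, adjusted p = 0.0161). The positive one was the small heat shock protein gene AT1G54050, with -0.47 and 0.22 (0.69 ± 0.17, adjusted p = 0.0129). Hop3 and AT2G20560, a DnaJ protein gene, were not called, with -0.48 ± 0.19 and -0.48 ± 0.20. After quantile normalization 1 negative call remained among the 15, that of AT2G29500, and 2 were positive.

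Genes of abscisic acid, cold and dehydration had 5 negative calls and 1 positive call among 14, with a median of -0.41. Those are 35.7% and 7.14%, against 6.92% and 11.2% of all probe sets. The cold-regulated gene AT4G33980, called at -1.68 above, is not on this list, so the counts do not cover every such gene. COR47, a dehydrin, had a response of -0.77 in wild type and -1.44 in tbf1 (-0.67 ± 0.11, adjusted p = 0.00104). LTI30, another dehydrin, gave 0.25 and -0.48 (-0.73 ± 0.14, adjusted p = 0.00263), and AT2G46140, a late embryogenesis abundant protein gene, gave 1.16 and 0.32 (-0.84 ± 0.20, adjusted p = 0.0104). Calcium sensor genes went both ways, with 1 positive and 2 negative calls among 8 (12.5% and 25%). CML38 was -1.80 in tbf1 against wild type after water and fell less, with -1.14 and -0.15 (0.99 ± 0.17, adjusted p = 0.00115), while CML42 rose less, with 1.86 and 1.13 (-0.73 ± 0.12, adjusted p = 0.000878). Among jasmonate and ethylene genes JRG21 had a rise of 1.58 in wild type and 0.69 in tbf1 (-0.90 ± 0.14, adjusted p = 0.000732). It was the only negative call of 12 (8.33%), beside the positive calls of PDF1.2 and PDF1.2b (16.7%). Of 11 autophagy genes 1 was called positive and 2 negative (9.09% and 18.2%). Among them ATG8E rose less (1.97 and 1.17, interaction -0.80 ± 0.18, adjusted p = 0.00617) and ATG8F fell less (-0.74 and -0.12, interaction 0.63 ± 0.11, adjusted p = 0.00157). The calls of COR47, CML38 and ATG8E were kept after quantile normalization, and those of LTI30, AT2G46140, CML42, JRG21 and ATG8F were lost.

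Among genes of secondary metabolism 3 of 7 probe sets for glucosinolate and camalexin were positive (42.9%) and none negative, and these 3 fell less in tbf1. GTR1, a glucosinolate transporter, had a response of -2.29 in wild type and -0.95 in tbf1 (1.34 ± 0.16, adjusted p = 7.85e-05). UGT74B1, a glucosyltransferase of glucosinolate synthesis, had -1.77 and -0.48 (1.28 ± 0.14, adjusted p = 3.92e-05) and differed after water by -1.25. The UDP-glycosyltransferases as a family had 9 negative and 2 positive calls among 50 (18% and 4%), with a median of -0.16. UGT85A2 had 0.16 and -0.76 (-0.92 ± 0.16, adjusted p = 0.00122) and UGT84A1 had 0.62 and -0.14 (-0.76 ± 0.21, adjusted p = 0.0209). Without 1 array the negative calls of this family ranged from 3 to 9, and after quantile normalization there were 3. UGT76B1, which glycosylates the immune signals isoleucic acid and SA, gave -0.64 and -0.28 and was not called (0.35 ± 0.18, adjusted p = 0.197). Glutathione transferases, which detoxify reactive compounds, had 4 positive and 1 negative calls among 14 (28.6% and 7.14%). They were led by GSTU18, GSTU27 and GSTL3 with 0.83 ± 0.22, 0.82 ± 0.18 and 0.81 ± 0.13, and none was called after quantile normalization. IAA29, a repressor of auxin responses, was the only called gene of 11 (9.09%) on the auxin and SAUR list, with -0.96 and 0.19 (1.15 ± 0.24, adjusted p = 0.00391). Cytochrome P450 genes had 3 positive and 2 negative calls among 24 (12.5% and 8.33%, near the 11.2% and 6.92% of all probe sets), the largest being CYP71B29 with -0.84 ± 0.16 and CYP71B23 with 0.80 ± 0.19.

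The edge of the called set was narrow. The last probe set inside it with a gene name was AT3G24190, with an interaction of 0.47 ± 0.16 (adjusted p = 0.0499), and the first outside it was AT5G50170, with -0.52 ± 0.17 (adjusted p = 0.05002).

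The elf18 difference was set against the SA difference, since the sprayed arrays give the same genotype comparison for another defence signal at another time and by another route. In a fit to all 24 arrays the elf18 interaction minus the SA interaction was called for 4178 probe sets (18.4%), 1746 positive (7.68%) and 2432 negative (10.7%). Of the 2234 probe sets with a positive elf18 interaction in that fit 965 (43.2%) also had a positive SA interaction, which was called for 16.6% of all probe sets, and these are 25.5% of the 3780 on the SA list. Of the 1290 negative ones 308 (23.9%) were also negative for SA, called for 12.7% of all and 10.7% of the 2889 on the SA list, and 270 (20.9%) were positive for SA. Over all probe sets 29.3% had a called SA interaction in either direction. The interactions share no arrays, but both calls came from the same fit with a common variance for each probe set, so they are not independent. The treatments also differ in time and in spray against infiltration. BGLU44 and PDF1.2 had positive differences in both, with SA interactions of 1.20 and 1.32. For cytosolic ribosomal proteins the median SA interaction was 0.50, and the difference between interactions was called negative for 31 of the 100 and positive for 7.

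The genes named for the contrast between the peptide and the hormone were the 5 most negative and the 5 most positive, and the 5 negative ones had a negative elf18 and a positive SA interaction. SWEET2, a sugar transporter of the vacuole membrane, was among them. After water SWEET2 read -0.94, -0.84 and -0.96 in wild type and 0.44, 0.41 and 0.39 in tbf1. After elf18 SWEET2 read 1.16, 1.05 and 0.94 in wild type and 1.42, 1.49 and 1.52 in tbf1. It rose on every elf18 array in both genotypes, and tbf1 was above wild type after both infiltrations. Its elf18 interaction was -0.90 ± 0.13 and its SA interaction 3.18 ± 0.16, a difference of -4.08 ± 0.22 (limma, adjusted p = 1.78e-11). psaA gave an SA interaction of 1.79 ± 0.54 and a difference of -4.26 ± 0.77 (adjusted p = 0.000198). AT4G21870, an HSP20-like protein gene, gave 2.09 for SA beside -1.14 for elf18 (adjusted p of the difference = 1.89e-09), AT1G62510 gave 1.18 beside -2.04 (adjusted p = 3.06e-07), and AT3G07590, a core protein of spliceosomal particles, gave 2.46 beside -0.65 (adjusted p = 2.01e-08). In the other direction AT3G48650 had an SA interaction of -1.96 beside 1.64 for elf18 (adjusted p = 1.98e-09), AT2G24160 had -1.63 beside 1.54 (adjusted p = 2.55e-07) and AT5G58120 had -1.67 beside 1.26 (adjusted p = 2.6e-07). AT4G00700, a C2 domain protein gene, had -2.33 beside 0.59 (adjusted p = 2.23e-07), and SAL2, an inositol phosphatase family gene, had -1.48 beside 1.38 (adjusted p = 6.52e-07). The elf18 interaction of AT4G00700 was not called in the 24-array fit, and that of AT3G07590 was not called after quantile normalization.

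**Figure D5:**
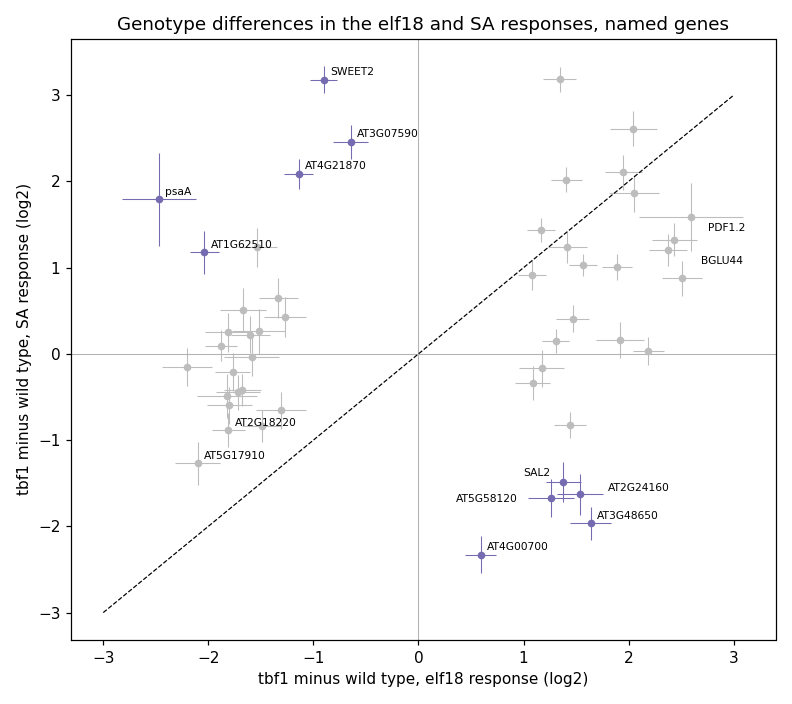
The genotype difference (tbf1 minus wild type, log2) in the SA response is plotted against that in the elf18 response for the genes named by size of interaction or by contrast with SA, with bars of ± SE, purple points for genes named for the contrast and a dashed line of equal differences. SWEET2, AT3G07590, AT4G21870, psaA and AT1G62510 lie at upper left with a negative elf18 and a positive SA value, and AT4G00700, AT3G48650, AT5G58120, AT2G24160 and SAL2 lie at lower right.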

How the data were processed

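Expression in Arabidopsis leaves was measured on 1-colour ATH1 arrays. The deposited values were taken as log2 values that the authors made with RMA, per the submitters' processing notes (version and log base not given in the sources used here). In the deposited table each of 22810 probe sets had been centred on its median over the 24 arrays (largest absolute median 5e-07), so no filter on dim probe sets was possible. No scaling was added. Tests used the 22746 probe sets other than 64 controls. GEO's platform annotation gives 13513 of them a single gene, 503 several genes and 8730 no gene, and Entrez identifiers tied 13436 to current names in the RefSeq table of TAIR10.1 (77 kept the older name). No coordinates or sequences are given, and the planned promoter motif search was not run, since no promoter sequence was used here.

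The interaction, the responses and the genotype differences were fitted in limma 3.58.1 under R 4.3.3 to the 12 infiltration arrays with a mean for each group and 8 residual degrees of freedom (lmFit, contrasts.fit, eBayes, two-sided, Benjamini-Hochberg over all probe sets tested). The contrast with SA was fitted to all 24 arrays (16 degrees of freedom). The fit was also run on simulated data with an equal spread in all groups. That run could not check the wider spread of the wild type elf18 arrays.

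The rule for naming genes took, among called probe sets of a single gene and no shared class, the 8 largest interactions of rises less, falls less, rises more and falls more, 5 each way of opposite responses, up to 4 called and 2 uncalled members of each list, and 5 each way for the contrast with SA. Genes of a list that the text leaves out are counted there. The members of the comparison, the lists and the alternatives were chosen with earlier results of these data known. Further lists by locus were added because the annotation names few genes. Lists are described by counts and medians with no test.

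Replicate numbers were compared between groups. Deviations from the group means of the 18 same-numbered pairs correlated at -0.11 to 0.28 (median 0.06). Those of other pairs correlated at -0.22 to 0.18 (median -0.02). Whether the numbers pair the arrays was not tested, and the fit as reported used no pairing. Alternatives were other normalizations, weights, covariates, a 2-fold minimum and leaving out each array.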

Additional observations from a re-analysis of the deposited data

Results flagged for a closer look

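Each called interaction in the report is a tested difference between the genotypes under the same contrast, and the genes listed here are those where the responses had opposite signs or where the elf18 and SA interactions differed most. For the opposite responses the value is the elf18 response in tbf1 minus that in wild type on the log2 scale, tested as the interaction in limma (adjusted p between 3.18e-06 and 0.000619 for the 10 genes). Wild type rose and tbf1 fell in AT5G17910 (-2.10), AT1G62510 (-2.04), AT5G65240 (-1.82), AT1G18390 (-1.71) and AT4G33980 (-1.68). Wild type fell and tbf1 rose in AT4G12980 (2.04), AT3G62550 (1.56), AT5G12940 (1.47), AT2G41950 (1.42) and AT2G20670 (1.41).

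For the contrast with SA the value is the elf18 interaction minus the SA interaction, tested in the fit to 24 arrays. It was negative in psaA (-4.26), SWEET2 (-4.08), AT4G21870 (-3.23), AT1G62510 (-3.21) and AT3G07590 (-3.10). It was positive in AT3G48650 (3.60), AT2G24160 (3.17), AT5G58120 (2.93), AT4G00700 (2.92) and SAL2 (2.86). Groups of 3 arrays were not tested for single arrays that stand apart.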

How the results depend on the processing

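No interaction of a named gene changed sign where it was called as reported or under the alternative. Of those not called in either, 8 changed sign, 7 of them after quantile normalization (WRKY22 from -0.15 to 0.31 among them) and ZAP1 without replicate 1 of the wild type elf18 arrays. Quantile normalization of the 12 arrays, which removes the wider spread of the wild type elf18 arrays by construction, gave 2245 calls, 1385 positive and 860 negative, with 414 that rose less, 870 that fell less and 5 in neither response, and ended the calls of 40 named genes. A minimum of 2-fold left 750, 480 and 270 calls, by class 138 rises less, 407 falls less, 19 rises more, 57 falls more, 128 opposite and 1 in neither. With the 5' minus 3' index as a covariate the total was 4561, but the classes became 300 rises less, 375 falls less, 12 rises more, 4 falls more, 0 opposite and 3870 in neither response. The median SE of the wild type response there was 0.71 against 0.12 without the covariate, and its median size 0.86 against 0.40, while the median SE of the interaction was 0.17 in both. Array weights per group gave 20 in neither response. Without 1 array the totals ran from 3185 to 4631 for all calls, 1960 to 2698 positive and 1198 to 1943 negative. By class these ranges were 736 to 1230 for rises less, 1550 to 2108 for falls less, 296 to 449 for rises more, 296 to 516 for falls more, 204 to 313 for opposite and 10 to 31 for neither. The contrast with SA ran from 3797 to 4568 without 1 array and gave 4605 calls under quantile normalization. With the replicate number as a block there were 4116 calls for the interaction and 4316 for the contrast with SA. Fitting all 24 arrays gave 3524 calls, centring arrays on their medians 4112, a robust prior variance 4040 and leaving out shared probe sets 3947. The number of arrays, 3 a group, limits the precision.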
